A study of Mus musculus with 2 samples.

Results

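The potassium channel genes described here are the mouse genes whose symbol begins with Kcn, Kcnip3 left out, that had at least 20 unique molecular identifiers (UMIs, 1 count per captured RNA molecule) over both deposited count tables. Of 98 such symbols 82 reached that limit, against 20245 of all 32285 genes in the tables. The symbols just under it were Kcne4 with 16 UMIs and Kcnmb1 with 15, and those just above it were Kcng4 with 24 and Kcnj8 with 38.

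The study profiled single nuclei of the mouse amygdala, a temporal lobe structure for fear and reward learning, with a 10x Genomics kit that counts RNA from its 5′ end. It holds 2 libraries, 1 from wild-type C57BL6/J mice and 1 from Sema6d-/- mice of the same strain, both from animals 6 to 8 weeks old. Semaphorin 6D, the product of Sema6d, is a membrane protein of axon guidance. No source used here gives the number or sex of the animals per library, whether they were pooled, or which part of Sema6d was deleted, and no treatment is named. Sema6d itself was at 632.1 CPM (UMIs per 1e+06 UMIs of the nuclei summed; 95% exact Poisson interval 626.6 to 637.6) in the library labelled WT and at 686.4 (679.6 to 693.2) in the library labelled KO, so it was not lower in the library labelled KO. Since the deleted part is not known, this level checks nothing about the labels, and "WT" and "KO" below name the labels only.

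Potassium channels let potassium leave or enter a cell along its gradient and thereby set the resting potential, the shape of the action potential and the firing rate. Voltage-gated (Kv) channels open on depolarisation, and inward rectifiers (Kir) pass inward current more easily than outward current. Leak channels with a pair of pore domains (K2P) hold the resting potential, and calcium- or sodium-activated channels follow ion entry. In glia, the inward rectifiers and leak channels take up and redistribute the potassium that active neurons release.

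After removal of doublets and poor nuclei, 10369 nuclei (median 7196 UMIs) were kept in the WT library and 7911 (median 6418) in the KO library. The 2 libraries share 128 barcodes. Nuclei were assigned to cell types by fixed marker genes, here called gates, and UMIs were summed per gate. Inhibitory neurons numbered 6502 in WT and 3863 in KO, and excitatory neurons 1815 and 1370. Finer gates were striatal-type neurons with D1 or D2 receptor markers (1534 and 1482 in WT, 761 and 713 in KO), interneurons of MGE and CGE type (named for the medial and caudal ganglionic eminences), a gate marked by Foxp2 with Tshz1, cholinergic neurons and 4 excitatory gates marked by Rspo2, Nr4a2 with Ntng2, Tcf7l2 and Sim1. Glial gates were astrocytes (910 and 668), oligodendrocytes (581 and 1164), oligodendrocyte precursors (165 and 212) and microglia (105 and 224), and vascular mural cells numbered 58 and 40. A gate for Prkcd, a marker of the central amygdala, held 1 and 10 nuclei and was not used, while the Rspo2 gate, marked by a basolateral amygdala gene, held 335 and 239. Marker genes kept out of the gating were at 12770 CPM in WT and 13770 in KO in the astrocyte gate for the astrocyte list, and at 13710 and 14740 in the oligodendrocyte gate for the oligodendrocyte list. Summed pan-neuronal markers were higher in KO neurons (8506 CPM in WT and 9822 in KO for inhibitory neurons), and activity-induced genes were lower (618.0 and 373.0). The part of these library differences in the ratios below was not tested. With 1 library per genotype there was no test of genotype, so every ratio compares 2 libraries, and its interval covers counting error only.

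The channel genes made up 19780 CPM of inhibitory neuron RNA in WT and 18870 in KO, and 21480 and 21360 CPM of excitatory neuron RNA. In oligodendrocytes they made up 4246 and 3256 CPM, in astrocytes 6025 and 5707, and in precursors 11090 and 10290. At 10 CPM or more in both libraries stood 49 of the 82 genes in inhibitory neurons, 50 in excitatory neurons, 36 in astrocytes and 34 in oligodendrocytes. Over their gates 75 genes reached 20 UMIs in the leading gate. Set against each other without mural cells, 56 of these were highest in a neuron gate in both libraries, 14 in a glial gate in both, and 5 in one and the other.

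Several of these genes sit side by side in the genome. By the GENCODE M21 annotation of mm10, 78 of the 82 are protein-coding and they lie on 19 chromosomes, with a median length of 39.5 kb and a range from 1.5 to 1135.4 kb. Kcnj9 and Kcnj10 lie 11.9 kb apart on chromosome 1, Kcnj16 and Kcnj2 lie 38.2 kb apart on chromosome 11, Kcna3 and Kcna2 lie 63.1 kb apart on chromosome 3, and Kcna1 and Kcna6 lie 61.9 kb apart on chromosome 6. The non-coding Kcnq1ot1, Kcnd3os, Kcnmb4os2 and Kcnab3os overlap Kcnq1, Kcnd3, Kcnmb4 and Kcnab3 on the opposite strand. Whether counting used strand is not given in the sources used here, so the values of these 8 genes are uncertain.

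Promoter windows from RefSeq (GRCm38.p6), 250 bases before to 50 after the gene start, were found for 58 of the 82 genes. The sequences below belong to 4 genes with a single leading cell type in both libraries, and capitals mark the letters GGGCGG (a GC box) or GAGGAA (an ETS-type core), on either strand. They are for Kcnj8 (chr6:142571565-142571864, strand -), leading in mural cells, Kcnh8 (chr17:52602459-52602758, strand +), leading in precursors, Kcnt2 (chr1:140245468-140245767, strand +), leading in cholinergic neurons, and Kcnk1 (chr8:125994852-125995151, strand +), leading in astrocytes.
Kcnj8: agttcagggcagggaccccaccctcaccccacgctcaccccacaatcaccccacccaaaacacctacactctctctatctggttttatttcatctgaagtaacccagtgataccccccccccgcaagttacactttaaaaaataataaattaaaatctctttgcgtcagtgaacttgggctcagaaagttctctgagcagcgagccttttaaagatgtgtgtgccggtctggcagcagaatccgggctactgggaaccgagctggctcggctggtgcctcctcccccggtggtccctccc
Kcnh8: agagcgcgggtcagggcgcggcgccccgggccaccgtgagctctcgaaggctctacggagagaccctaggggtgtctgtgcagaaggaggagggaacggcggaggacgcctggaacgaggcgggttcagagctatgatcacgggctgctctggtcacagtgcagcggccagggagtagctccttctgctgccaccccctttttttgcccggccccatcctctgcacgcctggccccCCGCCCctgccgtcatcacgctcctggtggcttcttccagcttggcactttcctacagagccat
Kcnt2: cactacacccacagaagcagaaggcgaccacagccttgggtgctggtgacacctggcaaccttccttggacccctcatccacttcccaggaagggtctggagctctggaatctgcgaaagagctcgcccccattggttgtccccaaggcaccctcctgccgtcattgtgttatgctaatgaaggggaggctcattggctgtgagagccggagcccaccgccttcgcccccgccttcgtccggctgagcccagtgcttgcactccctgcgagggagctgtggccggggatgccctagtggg
Kcnk1: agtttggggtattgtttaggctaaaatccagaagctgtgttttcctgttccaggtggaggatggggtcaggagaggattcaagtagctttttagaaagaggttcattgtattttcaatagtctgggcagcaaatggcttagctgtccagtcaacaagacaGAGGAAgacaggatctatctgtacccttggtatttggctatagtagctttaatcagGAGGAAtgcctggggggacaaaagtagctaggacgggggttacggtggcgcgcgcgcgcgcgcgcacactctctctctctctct

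Searched on both strands, GGGCGG occurs in 34 of the 58 windows (58.62%), against 35.91% of all 27025 promoter windows. TATAAA occurs in 2 (3.448%, against 14.16% of all), TGACGTCA in 0 (against 1.876%) and GAGGAA in 18 (31.03%, against 28.31%), and none of the 4 motifs contains another. The median number of CpG pairs per window was 12.5 in the channel genes and 7.0 over all. Of the windows printed, Kcnh8 holds 1 GGGCGG and 21 CpG pairs, Kcnk1 holds 2 GAGGAA, and Kcnj8 and Kcnt2 hold neither motif. A match is a description of letters, not a site in use.

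Levels of these genes differed between cell types, most often with the same leading gate in both libraries. Of the 75 genes tested over 15 gates, 48 (64.0%) were highest in the same gate in WT and KO, against 48.31% of all genes. A stricter call asked for at least a 2-fold lead over the next gate in both libraries, and 8 genes met it (10.67%), against 6.69% of all 15933 genes tested. These were Kcnt2, Kcnj8, Kcnk6, Kcnk1, Kcnh5, Kcnk10, Kcnv1 and Kcnh8. A gate with no UMI counted at 3 UMIs, which in the small mural gate is 41.72 CPM in WT and 63.36 in KO, so low genes could not lead it. Without that gate 9 genes met the call, with Kcnj12 in cholinergic and Kcng2 in Tcf7l2 neurons added and Kcnj8 lost with its gate, against 10.89% of all genes. The heat map shows the levels by family.

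**Figure D1:**
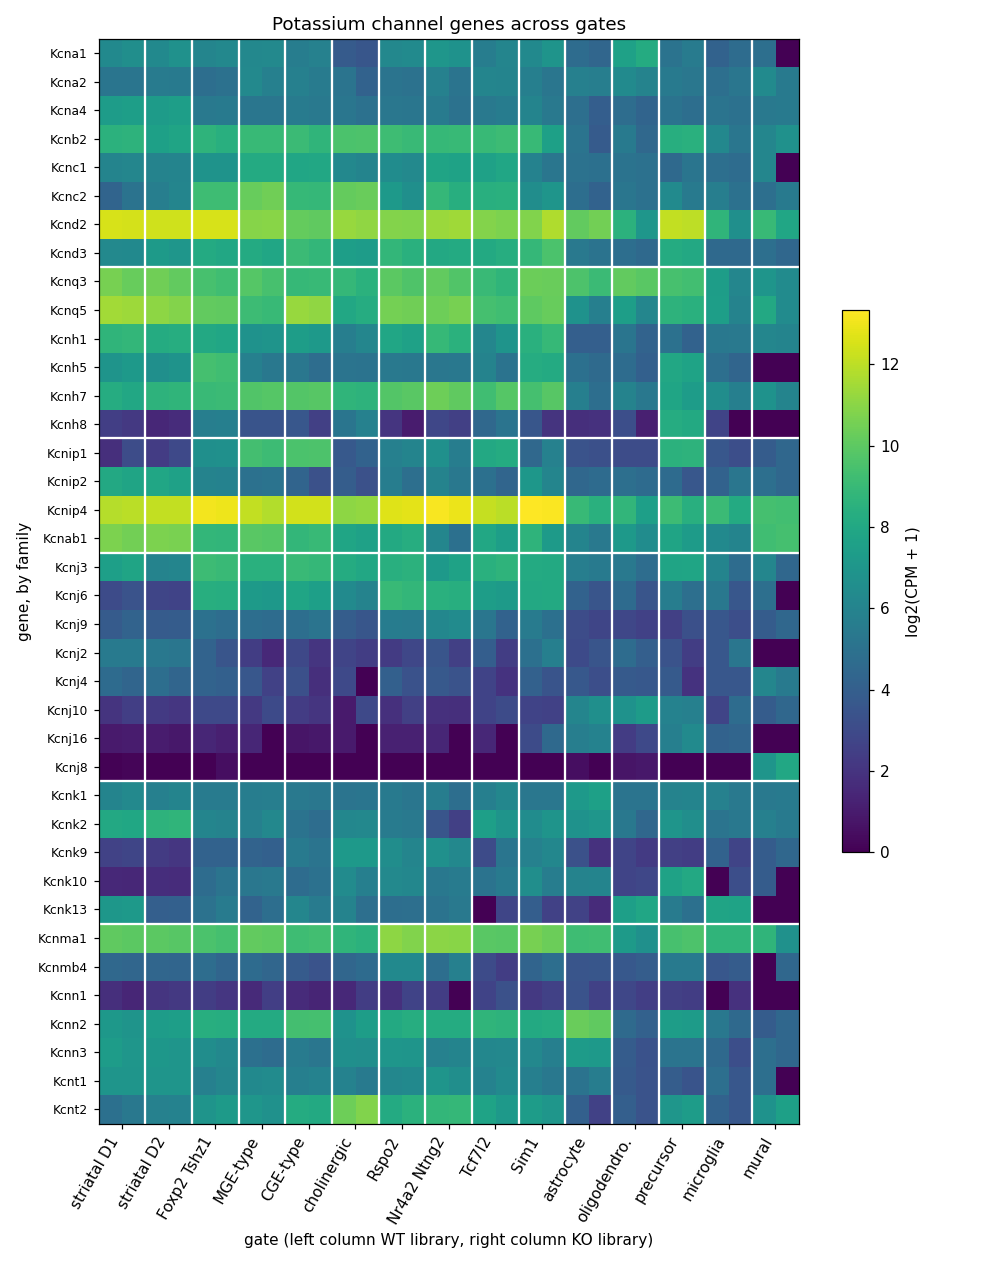
Levels of 38 potassium channel genes by family (rows) in 15 gates, as log2(CPM + 1), with the WT library in the left and the KO library in the right column of each gate. Kcnd2 and Kcnip4 are bright across the neuron gates, Kcnt2 in cholinergic neurons, Kcnn2 in astrocytes and Kcnh8 in precursors, in both libraries.

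Among the Kv channels for subthreshold and A-type current, Kcnd2, the main dendritic A-type subunit, ranged over the 10 neuron gates from 1174 CPM in CGE-type interneurons through a median of 2218 to 5900 in the Foxp2 Tshz1 gate in WT. In KO the range was 1069 to 5951, with a median of 2456, and the lowest and highest gates were the same. Striatal-type D1 and D2 neurons were near the top, at 5890 and 5269 CPM in WT and 5778 and 5242 in KO. Precursors stood beside neurons with 4350 and 4057 CPM. Kcnd3, the other A-type subunit, was instead low in D1 neurons (76.69 and 79.86) and high in CGE-type neurons (546.2 and 453.6) and the Sim1 gate (471.7 and 765.5). Kcna4, an axonal A-type subunit, was highest in the striatal-type gates, at 161.7 and 174.4 CPM in D1 and 159.0 and 178.5 in D2, against 64.24 or less in WT in the other neuron gates. Its D1 over D2 ratio was 1.017 in WT and 0.977 in KO.

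Kcnb2, a delayed rectifier, was lowest in WT in D2 neurons (188.5) and highest in cholinergic neurons (754.6 in WT and 794.5 in KO). In KO the Sim1 gate had the lowest Kcnb2 value, 191.4 against 508.4 in WT. With 61 WT and 98 KO nuclei, this gate was too small for a ratio. Kcna2, an axonal low-threshold subunit, was at similar CPM in neurons (median 49.09 in WT and 36.26 in KO) and glia (median 49.46 and 44.34). Kcna1, its partner along axons, was highest in oligodendrocytes, with 196.0 and 296.5 CPM, and the highest neuron gate was Nr4a2 Ntng2 in WT (126.2) and Sim1 in KO (117.8). Kcna6, another member of that subfamily and the neighbour of Kcna1, was also highest in oligodendrocytes, at 146.5 and 103.8 CPM.

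The Kv3 genes, known for fast repetitive firing, were highest in interneuron-type and a few other gates. Kcnc1 reached 281.5 and 278.8 CPM in MGE-type and 233.3 and 256.2 in CGE-type interneurons, against 63.02 and 69.06 in D1 neurons. Kcnc2 reached 1191 and 1397 in the MGE-type and 1141 and 1252 in the cholinergic gate, against 18.84 and 32.83 in D1 neurons. The CGE-type gate had 480.7 and 462.5, less than the Foxp2 Tshz1 gate with 584.0 and 574.3. Kcns3, a silent subunit that joins Kv2 channels, was at 62.23 and 49.65 in MGE-type and 46.52 and 36.26 in CGE-type neurons, with no other neuron gate above 7.288. Over the 15 gates Kcnc1 and Kcnc2 had a Spearman rho of 0.718 in WT and 0.768 in KO, a description over gates that share libraries.

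**Figure D2:**
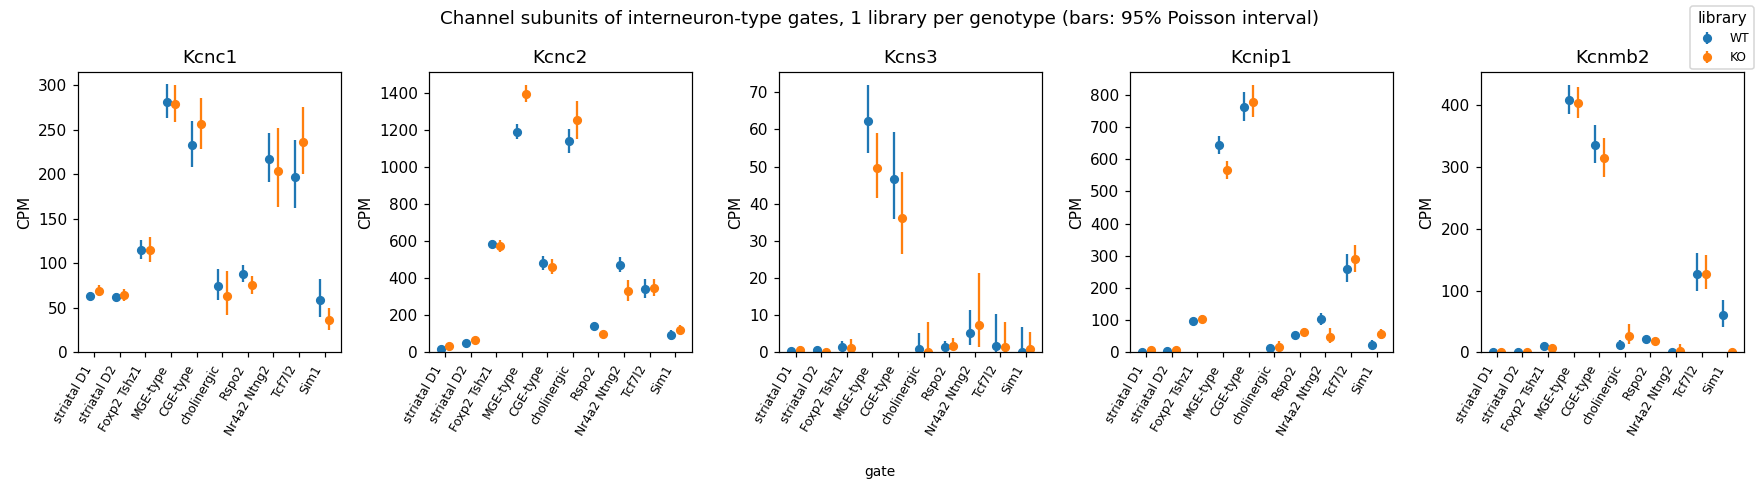
CPM of 5 channel genes (vertical axes, from 0) in the 10 neuron gates (horizontal axes) in the WT and KO libraries, with 95% Poisson intervals for counting error. Kcns3, Kcnip1 and Kcnmb2 are highest in the MGE-type and CGE-type gates in both libraries, while Kcnc2 is highest in the MGE-type and next in the cholinergic gate.

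The auxiliary subunits differed in their leading gates. Kcnip1, a calcium-binding partner of the A-type channels, was at 643.8 and 565.6 CPM in MGE-type and 763.3 and 779.2 in CGE-type neurons, against 2.438 and 7.532 in D1 neurons. Precursors also carried it, at 379.3 and 395.3. Kcnip2, of the same family, had the reverse order, with 261.4 and 216.6 CPM in D1, 236.1 and 195.7 in D2 and 18.33 and 8.863 in CGE-type neurons. Kcnip4 was present in every neuron gate, from 2144 in cholinergic to 10330 CPM in Sim1 neurons in WT, and from 2318 to 9913 in KO in the same gates. Kcnab1, a beta subunit that speeds inactivation of Kv1 channels, was highest in D2 neurons (1695 and 1607) and D1 neurons (1667 and 1429). Kcnv1, a silent modifier, was at 164.4 and 187.0 CPM in the Nr4a2 Ntng2 gate and led the next gate 4.378-fold in WT and 2.952-fold in KO. Kcng1, another silent subunit, was highest in Rspo2 neurons at 67.45 and 49.03.

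The M-current genes restrain repetitive firing. Kcnq3 was as high in oligodendrocytes (1105 and 958.4) as in many neurons, whose medians were 957.0 and 758.1. Kcnq5 was highest in D1 neurons, at 2889 and 2635, followed by CGE-type neurons at 2513 and 2221, and lowest in the cholinergic gate at 251.2 and 306.4. Over the 15 gates Kcnq3 and Kcnq5 had a Spearman rho of 0.479 in WT and 0.550 in KO.

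Among the ether-a-go-go genes, Kcnh5 was at 666.9 and 614.6 CPM in the Foxp2 Tshz1 gate, 2.202-fold and 2.149-fold over the Sim1 gate. Kcnh1, of the same branch, was spread over D1 neurons (419.4 and 457.3), the Nr4a2 Ntng2 gate (483.8 and 366.8) and the Sim1 gate (350.6 and 482.5). Kcnh7, of the ERG branch, was lowest in D1 neurons (309.3 and 257.6) and highest in the Nr4a2 Ntng2 gate (1327 and 1096). Kcnh8, of the ELK branch, was at 309.9 and 270.2 CPM in precursors and at 50.59 and 52.85 in the Foxp2 Tshz1 gate, and at 8.372 and 1.251 in oligodendrocytes.

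The inward rectifiers split into neuronal, glial and vascular genes. Kcnj3 and Kcnj6, pore subunits of the channels that G proteins open, were highest in the Foxp2 Tshz1 gate (572.4 and 528.1 CPM) and in Rspo2 neurons (508.7 and 451.5) respectively. Kcnj6 was at 7.241 and 9.663 in D1 and 5.950 and 5.458 in D2 neurons, lower than in every other neuron gate in both libraries, while Kcnj3 was 3.008-fold and 3.429-fold higher in D1 than in D2. Their Spearman rho over gates was 0.696 and 0.732. Kcnj9, a further neuronal subunit of that group, was highest in the Nr4a2 Ntng2 gate at 71.35 and 85.02. The strong rectifier Kcnj2 was at 42.71 and 42.49 CPM in D1 and 39.34 and 37.25 in D2 neurons, and its relative Kcnj4 at 24.60 and 19.61 in D1 and 26.94 and 19.27 in D2.

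Kcnj10, the main potassium-buffering rectifier of glia, was at 110.9 and 159.3 CPM in oligodendrocytes and 65.85 and 99.48 in astrocytes, with no neuron gate above 7.324. Kcnj16, its partner subunit, was at 50.49 and 58.93 in astrocytes and 53.27 and 81.06 in precursors, but at 4.186 and 6.673 in oligodendrocytes, so the order of glial gates differed between the pair. Kcnj8, the pore of the vascular channel that closes with ATP, was at 125.2 CPM (57.23 to 237.6, 9 UMIs) in WT and 253.4 (131.0 to 442.7, 12 UMIs) in KO mural cells and at most 0.8341 in any other gate. Its regulatory partner Abcc9, 16.2 kb away, was at 806.6 and 1162 CPM in that gate, with at most 2.791 elsewhere.

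Leak channels marked several glial gates. Kcnk1 was at 149.1 and 188.1 CPM in astrocytes, 2.362-fold and 2.489-fold over D1 neurons. After each nucleus was thinned to 1000 UMIs, 13.56% of 900 WT and 18.70% of 663 KO astrocytes had a Kcnk1 UMI (unthinned 31.54% and 38.17%), against 2.957% and 3.937% of oligodendrocytes (7.573% and 6.615%). Kcnk10 was at 206.6 and 261.7 in precursors. Kcnk6 was at 131.8 and 161.1 CPM in microglia and at most 4.858 elsewhere. Kcnk13, a microglial leak channel, was at 217.8 and 208.4 in microglia and 183.5 and 234.8 in oligodendrocytes. In neurons it separated the striatal-type gates, at 134.2 and 144.8 in D1 and 15.70 and 15.73 in D2, a ratio of 8.548 and 9.205. Kcnk2, a stretch-sensitive leak channel, had the opposite order, with 259.7 and 243.6 in D1 and 396.3 and 427.5 in D2. Kcnk9, an acid-sensitive one, was highest in cholinergic neurons, at 147.9 and 140.1.

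Of the channels that ions activate, Kcnma1, the large-conductance calcium-activated pore, was highest in Rspo2 (2153 and 1793 CPM) and Nr4a2 Ntng2 neurons (2100 and 2019). Its beta subunit Kcnmb4 was highest in Rspo2 neurons (78.29 and 79.67), whereas Kcnmb2 was at 409.0 and 404.1 in MGE-type and 336.2 and 315.1 in CGE-type neurons. Kcnn2, a small-conductance subunit, was at 1256 and 1089 in astrocytes and at 660.4 and 664.8 in CGE-type neurons, the next gate. A Kcnn2 UMI was found in 66.00% of thinned WT and 59.28% of thinned KO astrocytes (unthinned 89.23% and 86.23%), against 1.217% and 1.575% of oligodendrocytes. Kcnn3 was at 155.9 and 148.7 in astrocytes and 165.0 and 128.9 in D1 neurons, and Kcnn1 did not exceed 9.695 CPM in any gate. Kcnt2, a sodium-activated channel, was at 1336 and 1797 in cholinergic neurons, 2.963-fold and 3.813-fold over the Nr4a2 Ntng2 gate. Kcnt1, its relative, was at nearly equal levels in D2 (124.7 and 123.6) and D1 neurons (121.2 and 123.1). The Nr4a2 Ntng2 gate was beside them in WT, with 122.7 CPM against 94.74 in KO.

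Between the libraries, few channel genes differed in neurons. A gene was called where the KO over WT ratio passed 1.5-fold in either direction with at least 100 UMIs in the gate. In inhibitory neurons 1 of 72 genes was called (1.389%), against 7.03% of all genes, and in excitatory neurons 3 of 66 (4.545%), against 6.33%. The median log2 ratio was 0.027 and -0.004 there, against 0.042 and 0.037 over all genes. In D1 neurons 2 of 52 were called (background 5.48%), in D2 neurons 0 of 49 (5.39%), and in the Foxp2 Tshz1 gate 2 of 46 (5.2%). In MGE-type neurons 3 of 42 were called (4.28%), in CGE-type 1 of 33 (5.42%) and in Rspo2 neurons 3 of 47 (5.9%). In every class and gate of neurons but the MGE-type and Rspo2 gates the share of channel genes called was under the background.

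Kcnj4, the strong inward rectifier, was the 1 gene called in both neuron classes. It was at 18.85 CPM (17.70 to 20.05) in WT and 12.38 (11.22 to 13.62) in KO inhibitory neurons, a log2 ratio of -0.607 (-0.774 to -0.441). In excitatory neurons it was at 17.98 (16.13 to 19.98) and 8.733 (7.327 to 10.33), a log2 ratio of -1.042 (-1.339 to -0.751). With the subtypes weighted alike in both libraries the ratios were -0.621 and -0.775. Its intervals did not overlap in either class, but in D1 neurons the ratio was -0.327, in D2 neurons -0.484 and in the Foxp2 Tshz1 gate -0.172, under the 1.5-fold limit. Some gates with too few UMIs for a call had larger ratios, and others did not. The larger ones were -1.161 in MGE-type (33 and 13 UMIs), -0.812 in Rspo2 (61 and 27) and -1.807 in CGE-type neurons (12 and 3). In the Nr4a2 Ntng2 gate the ratio was -0.326 (14 and 4). In cholinergic neurons it was -0.015 (7 and 0, with 0 counted as 3).

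**Figure D3:**
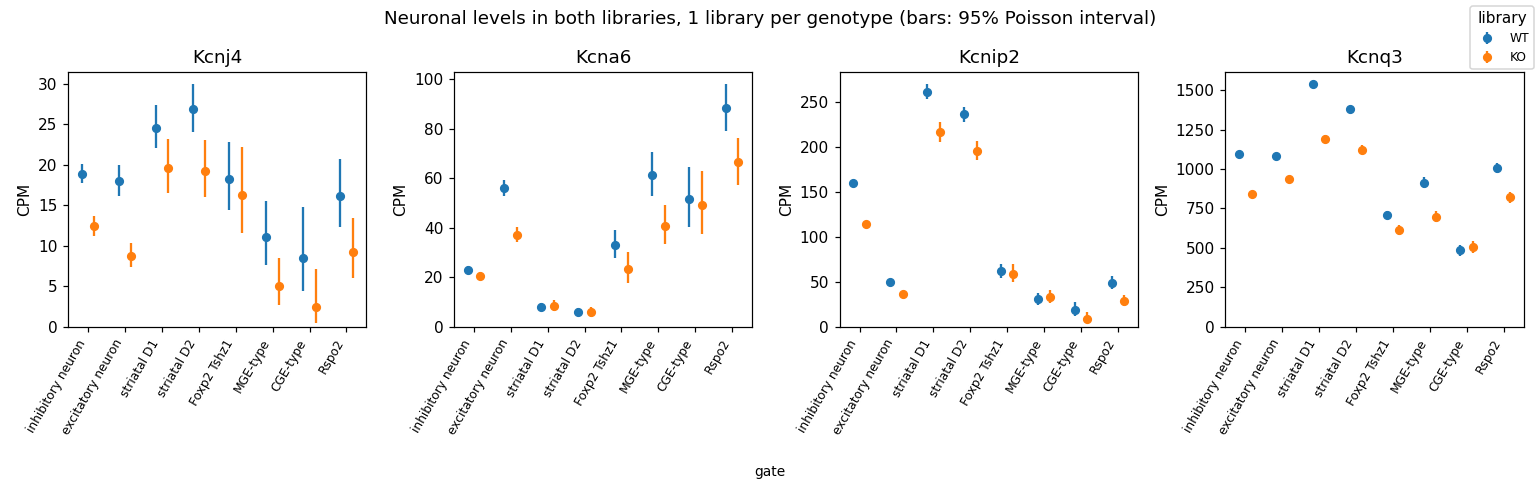
CPM of 4 channel genes (vertical axes, from 0) in the neuron classes and gates (horizontal axes) of the WT and KO libraries, with 95% Poisson intervals for counting error. Kcnj4 is lower in the KO library in all 8, with overlapping intervals in several gates, while Kcnq3 is lower in 7 and slightly higher in CGE-type neurons.

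Excitatory neurons also had Kcna6 lower, at 55.97 and 37.05 CPM (log2 ratio -0.595, interval -0.743 to -0.448), and Kcng2, a silent subunit, higher, at 3.439 and 6.229 (0.857, 0.391 to 1.331). With equal subtype weights these ratios were -0.460 and 0.049, both under the limit. In D1 neurons Kcnc2 was at 18.84 and 32.83 (0.801, 0.538 to 1.064) and Kcna5, a delayed rectifier, at 4.655 and 7.390 (0.667, 0.108 to 1.220). The D1 gate has the lowest Kcnc2 level of the 10 neuron gates in both libraries. With doublets kept, its ratio was 0.281.

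The Foxp2 Tshz1 gate had Kcnj2 lower, at 17.81 and 10.40 CPM (-0.776, -1.491 to -0.106), and the silent subunit Kcns2 higher, at 12.82 and 19.56 (0.609, 0.013 to 1.200). MGE-type neurons had 3 higher genes, Kcna3 at 15.47 and 24.44, Kcnab3 at 27.25 and 42.01 and Kcnk13 at 17.83 and 27.50. In CGE-type neurons Kcnk13 was instead lower, at 68.37 and 45.12. Rspo2 neurons had the acid-sensitive leak channel Kcnk3 at 18.52 and 10.21 (-0.858, -1.526 to -0.222), Kcnip2 at 48.41 and 28.26 (-0.776, -1.168 to -0.395) and the mechanically gated Kcnk4 at 12.43 and 18.73 (0.591, 0.003 to 1.184). The Kcnk4 call was lost under TMM scaling (0.540) and with doublets kept (0.398). The calls in these 4 gates rest on 25 to 183 UMIs per gene and library.

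Smaller shifts with one sign across gates were counted too. Of the 29 channel genes with 100 UMIs in all 6 neuron gates, 3 were lower in KO in all 6, against 13.8% of all 4595 genes, among them Kcnq5 (log2 ratio -0.221 to -0.061) and Kcnn3 (-0.356 to -0.057). Kcna1 was the 1 gene higher in all 6 (0.032 to 0.380), against 13.8% of all genes. Kcnq3 was lower in 5 of the 6, down to -0.385, with 0.063 in CGE-type neurons. Under TMM and median-of-ratios scaling the median of all genes moved by at most 0.07 on the log2 scale.

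**Figure D4:**
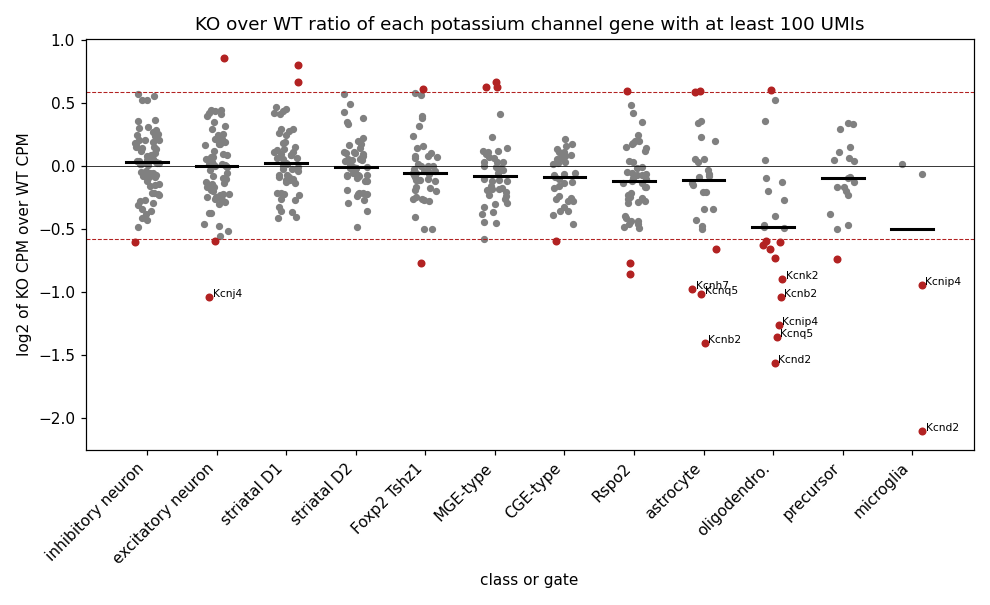
Log2 of KO over WT CPM (vertical axis) of each potassium channel gene with at least 100 UMIs in the neuron classes and gates and in the glial gates (horizontal axis). Points past 1.5-fold (dashed lines) are red, short black lines are medians, and names are given past 0.9. Oligodendrocytes hold 10 red points below and 1 above, and D2 neurons none.

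Oligodendrocytes and astrocytes held a larger share of called channel genes than the background, and precursors did not. In oligodendrocytes 11 of 22 were called, 10 of them lower in KO, against 11.6% of all genes, with a median log2 ratio of -0.490 against -0.005 over all genes. In astrocytes 6 of 26 were called, 4 lower and 2 higher, against 8.25%. In precursors 1 of 19 was called, against 6.76%, and in microglia 2 of 4, both lower, against 13.8%. The genes that were lower include several with high levels in neurons, and summed pan-neuronal markers were also lower in the KO library in each glial gate. Their log2 ratio was -0.374 in oligodendrocytes, -0.272 in astrocytes, -0.241 in precursors and -0.221 in microglia.

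Kcnd2 had the lowest ratio of the 22 genes in oligodendrocytes, with 376.0 CPM (345.0 to 409.2) in WT and 127.2 (113.3 to 142.3) in KO, a log2 ratio of -1.564 (-1.771 to -1.358). Thinned to 1000 UMIs, 24.35% of 575 WT and 10.41% of 1143 KO oligodendrocytes had a Kcnd2 UMI (unthinned 40.62% and 19.76%). Kcnq5 was at 177.2 and 69.23 (-1.356), Kcnip4 at 442.3 and 183.9 (-1.266), Kcnb2 at 44.65 and 21.69 (-1.042) and Kcnk2 at 39.77 and 21.27 (-0.903). The other lower genes, among them Kcnab1, Kcnh7, Kcnma1 and Kcnj3, had log2 ratios from -0.729 to -0.600. The Kcnj3 call was lost under TMM scaling (-0.579), with doublets kept (-0.546) and with at least 1000 genes per nucleus (-0.374). Kcnq3, at 1105 and 958.4, had a log2 ratio of -0.205 and was not called.

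With glial pools limited to 1200 CPM of pan-neuronal markers, 173 WT and 765 KO oligodendrocytes were left, with 821.9 and 884.5 CPM of those markers, so that the marker level was no longer lower in KO. In these nuclei 8 of 12 channel genes were called, against 19.4% of all genes in the same nuclei. Of the 8, 5 were lower and the rest higher, whereas without the limit 10 of 11 were lower. The log2 ratio was -0.902 for Kcnd2, -0.888 for Kcnip4 and -0.678 for Kcnq5, all smaller than without the limit. Kcnab1 and Kcnma1, at -0.729 and -0.607 without the limit, were at 0.326 and 0.024 with it. The limit also changed which nuclei were compared, and the part of neuronal RNA in any of these ratios was not tested.

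Without the 1200 CPM limit, Kcna1 was the 1 called gene higher in KO oligodendrocytes, with 196.0 CPM (173.8 to 220.4) in WT and 296.5 (275.1 to 319.1) in KO. Its log2 ratio was 0.597 (0.396 to 0.801), and 0.731 under the limit. Kcnj10 (0.522) and Kcnk13 (0.356) were also higher in KO oligodendrocytes without the limit, within 1.5-fold. Kcna6, the neighbour of Kcna1, went the other way at -0.497.

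**Figure D5:**
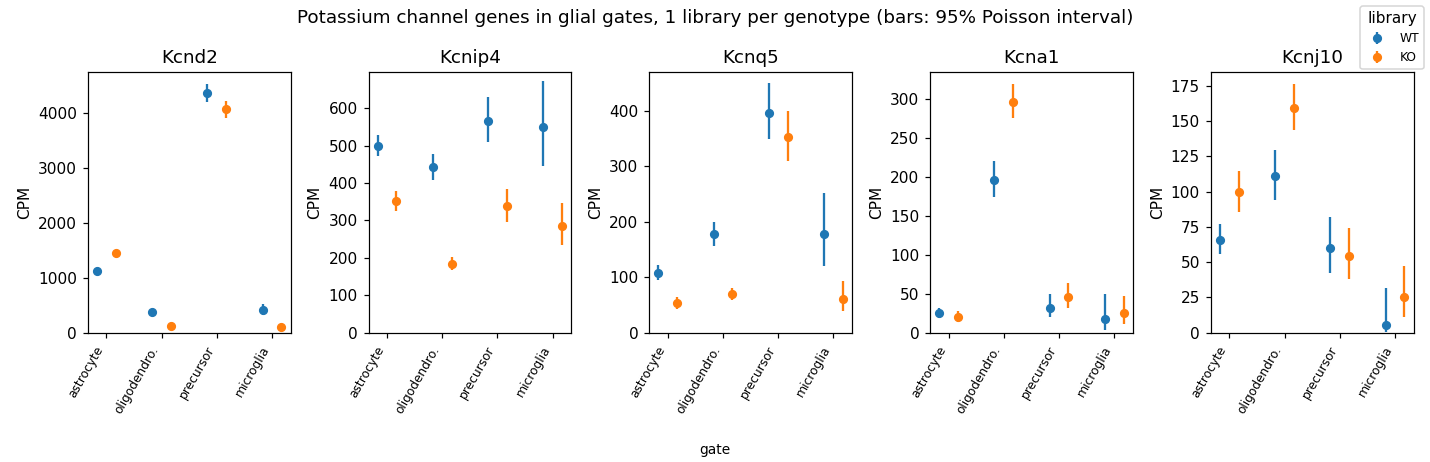
CPM of 5 channel genes (vertical axes, from 0) in the 4 glial gates (horizontal axes) of the WT and KO libraries, with 95% Poisson intervals for counting error. Kcnip4 and Kcnq5 are lower in the KO library in all 4, Kcnd2 is lower in oligodendrocytes and microglia but higher in astrocytes, and Kcna1 and Kcnj10 are higher in oligodendrocytes.

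In astrocytes the lower genes were Kcnb2 at 34.34 and 12.98 CPM (-1.404, -2.122 to -0.736), Kcnq5 at 108.3 and 53.53 (-1.016, -1.364 to -0.678), Kcnh7 at 53.32 and 27.03 (-0.980, -1.480 to -0.500) and Kcnab1 at 64.23 and 40.55 (-0.664, -1.080 to -0.259). The higher genes were Kcnj10 at 65.85 and 99.48 (0.595, 0.283 to 0.908) and Kcnt1 at 33.12 and 49.74 (0.587, 0.141 to 1.034). On thinned nuclei the Kcnj10 ratio was 0.395, under the limit. Kcnd2 was higher in KO astrocytes (0.356), opposite to oligodendrocytes, and Kcnn2 was at -0.206. In precursors Kcnip4 was at 566.6 and 338.5 (-0.743, -0.987 to -0.502). In microglia, on 105 WT nuclei, Kcnd2 was at 418.5 and 97.24 (-2.105, -2.730 to -1.505) and Kcnip4 at 550.3 and 286.2 (-0.943, -1.359 to -0.527), while Kcnk13 was at 217.8 and 208.4. Under the 1200 CPM limit 1 WT microglial nucleus was left, which gave no value. Astrocytes under that limit numbered 658 and 607, and 4 of 22 genes were called, against 8.49% of all genes. Of these, 2 were lower, Kcnq5 (-1.090) and Kcnh7 (-1.035), since Kcnab1 was at -0.574 and Kcnb2 no longer reached 100 UMIs. Pan-neuronal markers in these astrocytes were at 921.1 CPM in WT and 813.8 in KO, so the limit left them lower in KO. Precursors under the limit numbered 94 in WT, below the 100 nuclei asked of ratio gates, and 108 in KO. In them 1 of 17 was called, Kcnip4 (-1.075), against 8.42%. Their pan-neuronal markers were at 1132 CPM in WT and 954.0 in KO, also still lower in KO. The part of neuronal RNA in these calls was not tested.

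The partner proteins of these channels were counted by the same rule, from lists chosen with earlier results known. In inhibitory and excitatory neurons 0 of 26 passed 1.5-fold, against 7.03% and 6.33% of all genes, and in D1 neurons Amigo1, a partner of Kv2 channels, was higher (10.34 and 16.91 CPM). Cntn2, an axonal adhesion protein near Kv1 channels, was higher in the Foxp2 Tshz1 gate (13.06 and 24.97), Abcc8, a subunit of the ATP-sensitive channel, in MGE-type neurons (13.79 and 25.21), and Dlg4, a synaptic scaffold, was lower in CGE-type neurons (90.92 and 57.21). These were 1 of 23 partners in D1 neurons, 1 of 22 in the Foxp2 Tshz1 gate, 1 of 24 in MGE-type and 1 of 18 in CGE-type neurons, against 5.48%, 5.2%, 4.28% and 5.42% of all genes. In astrocytes 5 of 19 passed, against 8.25% of all genes, among them Dpp10, an A-type channel partner, at 185.0 and 69.20, Cntnap2, which gathers Kv1 channels at the juxtaparanodes of myelinated axons, at 254.5 and 115.2, and Atp1b2, a sodium pump subunit, at 274.3 and 475.8. In oligodendrocytes 4 of 21 passed, against 11.6%, with Dpp10 at 234.4 and 90.08, Cntnap2 at 369.8 and 168.9, and the pacemaker channel Hcn2 higher at 84.42 and 163.9. In precursors 2 of 14 passed, against 6.76%, among them Cntnap2 at 390.6 and 186.3, and in microglia 1 of 6, against 13.8%, the scaffold Dlg2 at 630.5 and 280.6.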

How the data were processed

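The deposited tables hold raw UMI counts per gene and barcode, made by the authors with Cell Ranger 6.0.0 on mm10, per the submitters' processing notes; the labels' protocols name a 10x 5′ v2 kit. The tables have 32285 genes, of which 32158 have a symbol. The channel genes, lists and tests were chosen with earlier results of these data known.

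Barcodes with under 500 genes or over 5% mitochondrial UMIs were removed, and Scrublet doublets (422 in WT, 222 in KO), leaving 79305700 and 56736373 UMIs. Within each library, marker counts were pooled over each nucleus and its neighbours (20 nuclei in all, 30 principal components of 2000 variable genes without channel genes) and compared with CPM minimums set after marker levels, not channel levels, were seen. Glial pools needed under 3000 CPM of pan-neuronal markers and neuron pools at least 4000. Nuclei in no class or gate numbered 214 in WT and 261 in KO. Among assigned neurons, 2031 WT and 1403 KO inhibitory and 1168 and 858 excitatory nuclei met no finer gate. Another 90 and 84 nuclei met several finer gates. These neurons entered the class sums but none of the 10 neuron gates, so each highest or lowest neuron gate was found without them. Gates of at least 20 nuclei per library entered the pattern and of at least 100 under the main settings the ratios.

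Counts were summed per gate and given as CPM with exact Poisson intervals, and ratios with exact conditional binomial intervals (95%, scipy 1.17.1), which cover counting error only. The spread used for medians was the median width to one side of the members' intervals. Scaling alternatives used edgeR 4.0.16. Named genes were those past either call, up to 4 per gate for the pattern and 5 in each direction for the ratio, plus a set chosen by family; genes named outside it (Kcns3, Kcnmb2, Kcng1, Kcnj12) were chosen after their values were seen. Some genes that the rule would name are counted but not reported here. The ratio code was tested on simulated data.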

Additional observations from a re-analysis of the deposited data

Results flagged for a closer look

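Kcnk13, a leak channel gene, moved in opposite directions in the interneuron-type gates. Its log2 KO over WT ratio was 0.625 (0.093 to 1.165) in MGE-type neurons, on 53 UMIs in WT and 72 in KO, and -0.599 (-1.101 to -0.110) in CGE-type neurons, on 97 and 56 UMIs. With 1 library per genotype the difference between these gates was not tested. With at least 1000 genes per nucleus the ratios were 0.356 and -0.429, both under 1.5-fold. After thinning to 1000 UMIs, 4.972% (2.299 to 9.229) of 181 WT CGE-type nuclei had a Kcnk13 UMI (unthinned 27.62%). In KO it was 6.993% (3.404 to 12.48) of 143 nuclei (unthinned 23.08%), so the thinned share was not lower in KO.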

How the results depend on the processing

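The median ratios moved by less than the spread used for them under every alternative run. That spread is the typical counting interval of a single gene, not an error of the median. The comparison therefore cannot show that the medians are stable. Of 35 called pairs of gene and gate (26 genes), 18 were called under every alternative that tested them. The alternatives that tested each of these 18 ran from 4, for Kcnk2 in oligodendrocytes, to 11, for Kcnj4 in inhibitory neurons. The 18 pairs were thus not tested alike. Pools of 10 nuclei, the 1200 CPM limit and the omission of mural cells were chosen after seeing the data. No paired analysis was possible because each genotype has 1 library.

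Counts called depended most on the UMI minimum, and are given here with the genes tested and, in parentheses, the share of all genes called alike. At 20 UMIs they were 5 of 79 (13.4%) in inhibitory neurons, 6 of 76 (13.6%) in excitatory neurons, 9 of 71 (12.5%) in D1, 3 of 69 (12.8%) in D2, 10 of 63 (12.5%) in MGE-type, 10 of 54 (15.9%) in CGE-type and 12 of 67 (13.9%) in Rspo2 neurons. Glia had 8 of 20 (31.4%) in microglia, 9 of 37 (21.3%) in precursors, 14 of 49 (16.4%) in astrocytes and 20 of 48 (19.95%) in oligodendrocytes. At 300 UMIs they were 1 of 40 (3.5%) in D1, 0 of 30 (2.01%) in Foxp2 Tshz1, 0 of 28 (1.63%) in MGE-type, 0 of 20 (2.56%) in CGE-type, 0 of 30 (2.97%) in Rspo2 neurons, 2 of 11 (5.36%) in astrocytes and 6 of 11 (9.05%) in oligodendrocytes. On nuclei thinned to 1000 UMIs they were 2 of 50 (4.5%) in inhibitory neurons, 0 of 27 (5.76%) in D1, 1 of 30 (5.57%) in D2, 0 of 21 (6.32%) in Foxp2 Tshz1, 0 of 16 (5.76%) in MGE-type, 0 of 16 (5.92%) in Rspo2 neurons, 1 of 11 (7.81%) in astrocytes, 1 of 2 (16.8%) in microglia and 7 of 12 (10.7%) in oligodendrocytes. These alternatives change how many UMIs are counted.

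Median-of-ratios scaling gave 5 in excitatory neurons and 1 in the Foxp2 Tshz1 gate, and equal subtype weights 2 in inhibitory neurons. With doublets kept there were 2 in inhibitory neurons, 2 in D2 and 4 in the Foxp2 Tshz1 gate. With at least 1000 genes per nucleus there were 1 in D1, 1 in D2, 0 in CGE-type neurons and 4 in oligodendrocytes. A stricter gate, with a marker UMI in the nucleus itself, gave 0 in the Foxp2 Tshz1 gate, and pools of 10 nuclei gave 1 in D2, 2 in CGE-type and 1 in Rspo2 neurons. The genes with 1 leading gate were 14 of 75 at a 1.5-fold lead (10.57% of all genes) and 2 of 75, or 2.667%, at a 3-fold lead, under the 3.508% of all genes. In oligodendrocytes Kcnab1 (0.326) and Kcnma1 (0.024) reversed under the 1200 CPM limit. The cause of these shifts was not tested.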
